A study of Mus musculus with 19 samples.

Results

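Constitutive TEAD peaks at promoters were the TEAD-bound regions of wild-type mouse liver that were also bound after 3 and 7 days of YAP induction and that lay at the start of a protein-coding gene. They were selected on TEAD peak calls: a peak of the TEAD list from WT livers was a member if it shared at least 1 bp with a TEAD peak at 3 d and with one at 7 d, and if it reached into a promoter, taken as 2000 bp before to 1000 bp after a protein-coding transcription start. This gave 1647 peaks of the 5695 TEAD peaks of WT livers, and of 82869 peaks in all 6 lists of the series. The remaining 3747 constitutive TEAD peaks on numbered chromosomes and X lay outside every such interval and are called distal here.

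The series profiled YAP and TEAD by ChIP-seq in livers of C57BL/6 mice. All animals carried a ROSA26 allele for the doxycycline-dependent activator (ROSA26-rtTA-IRES-EGFP). WT animals had no YAP transgene and ate doxycycline food for 7 days, and tetYAP animals ate it for 3 or 7 days. According to the study's methods the transgene encodes the activated YAP mutant S127A, and albumin-driven Cre directed its induction to hepatocytes, while the chromatin came from whole liver, so binding in more cells and more binding per cell cannot be told apart. The TEAD antibody was raised against TEAD4 and was reported to recognize TEAD1 and TEAD3 as well. The 19 samples were merged by the authors into 1 peak list per antibody and condition (3 replicates each, 4 for TEAD at 7 d), so no value below carries a spread between replicates and no p-value was computed. Intervals on shares cover counting error over peaks only.

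TEAD proteins are DNA-binding transcription factors with no strong activation domain of their own, and they read the sequence GGAATG, which on the opposite DNA strand appears as CATTCC. YAP and its relative TAZ do not bind DNA directly but are brought to it by TEAD, and the Hippo kinases keep them in the cytoplasm. In adult liver this pathway restrains hepatocyte growth, and genes of the cytoskeleton, of cell adhesion and of the pathway itself are well-known targets of YAP and TEAD.

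Sequences at some of the strongest members are printed as examples. Each is the plus strand of mm9 around the WT summit, cut where annotated UTR begins, with TEAD motifs in capitals. Where the whole window is UTR, as at Trip6, 30 bases around the motif are shown. The first group holds the 5 members with the highest −log10 p-value in WT livers.
Trip6, chr5:137755484-137755513: ctgacgtcaccaCATTCCaggggagggtca
Creb3l2, chr6:37392211-37392411: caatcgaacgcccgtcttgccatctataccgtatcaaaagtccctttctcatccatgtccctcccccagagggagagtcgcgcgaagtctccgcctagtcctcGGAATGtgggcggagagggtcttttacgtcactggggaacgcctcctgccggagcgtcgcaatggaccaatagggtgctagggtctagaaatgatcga
Hps5, chr7:54026179-54026379: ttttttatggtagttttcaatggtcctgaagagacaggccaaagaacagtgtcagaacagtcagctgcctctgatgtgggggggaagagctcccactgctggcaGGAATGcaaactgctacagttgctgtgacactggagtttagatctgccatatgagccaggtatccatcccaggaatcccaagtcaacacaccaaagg
Tspan4, chr7:148662446-148662646: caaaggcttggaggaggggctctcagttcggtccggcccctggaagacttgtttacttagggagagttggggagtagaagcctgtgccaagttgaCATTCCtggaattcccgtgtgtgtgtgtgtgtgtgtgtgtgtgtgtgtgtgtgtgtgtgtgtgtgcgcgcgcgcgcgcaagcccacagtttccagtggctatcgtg
Man2b2, chr5:37221893-37222000: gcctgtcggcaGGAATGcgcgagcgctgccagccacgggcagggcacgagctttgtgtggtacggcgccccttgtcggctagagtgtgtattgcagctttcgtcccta

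The second group holds Ctgf, a classical target gene of YAP, and members with the strongest YAP peaks at 7 d. Tspan4 belongs to both groups, and the stretch at 1110034B05Rik held no GGAATG and lay wholly in a UTR, so it is not printed.
Ctgf, chr10:24315109-24315247: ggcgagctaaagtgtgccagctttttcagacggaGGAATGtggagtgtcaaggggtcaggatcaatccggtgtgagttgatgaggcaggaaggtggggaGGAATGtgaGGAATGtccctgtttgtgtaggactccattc
Nln, chr13:104827820-104828020: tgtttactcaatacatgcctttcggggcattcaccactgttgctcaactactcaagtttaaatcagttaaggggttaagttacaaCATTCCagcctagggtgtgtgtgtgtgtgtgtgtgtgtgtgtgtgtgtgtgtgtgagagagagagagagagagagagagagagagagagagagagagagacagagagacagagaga
2700078E11Rik, chr19:60657494-60657694: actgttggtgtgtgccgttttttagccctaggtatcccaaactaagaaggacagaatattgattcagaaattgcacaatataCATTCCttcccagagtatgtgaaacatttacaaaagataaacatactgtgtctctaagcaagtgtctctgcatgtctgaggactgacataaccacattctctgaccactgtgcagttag
Tln1, chr4:43571333-43571504: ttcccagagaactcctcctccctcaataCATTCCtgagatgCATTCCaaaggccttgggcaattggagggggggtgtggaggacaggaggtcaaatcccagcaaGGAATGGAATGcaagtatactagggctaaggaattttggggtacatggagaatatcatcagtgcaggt

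Each of these 9 windows holds at least 1 TEAD motif close to the summit. They do not stand for all 1647 members, of which 951 (57.7%) held no GGAATG within 100 bp of the WT summit. Ctgf holds 3 and Tln1, which encodes the focal adhesion protein talin, holds 4, a pair of which overlap by 1 base.

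The members were first described by where they lie. Summits clustered just upstream of transcription starts: the median summit lay 101 bp upstream of the nearest protein-coding start, with quartiles at −304.5 and 26 bp. Of the 1647 summits, 839 (50.9%) lay within 200 bp of a start and 1239 (75.2%) within 500 bp, although the rule admitted peaks up to 2000 bp upstream, and 1157 (70.2%) lay on the upstream side. By the annotation of protein-coding transcripts, 911 summits (55.3%) were outside a transcript, 406 (24.7%) in an intron, 273 (16.6%) in a UTR exon and 57 (3.46%) in a coding exon. Only 190 summits (11.5%) were more than 1000 bp from a start.

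**Figure D1:**
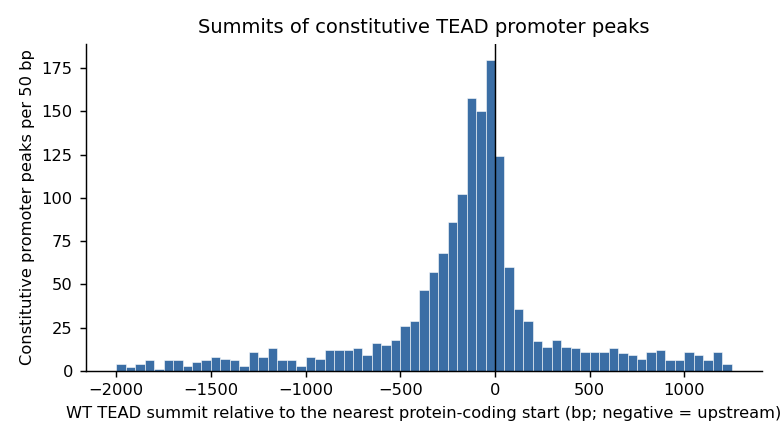
Number of constitutive TEAD promoter peaks (y axis, per 50 bp) by the distance in bp of the WT summit from the nearest protein-coding start (x axis, negative upstream; 35 members beyond the plotted range are left out). The fullest bin, with 180 members, is the 50 bp just upstream of the start.

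The members touched the promoters of 1814 of 22342 protein-coding genes, which is 8.12% of them. Most members (1405) overlapped the promoter of 1 gene, 237 that of 2 genes and 5 that of 3. In 184 members (11.2%) the starts of a pair of genes pointed away from each other within 1000 bp. At these divergent promoters 40.2% held GGAATG within 100 bp of the summit and 8.15% overlapped a YAP peak at 7 d, against 42.5% and 9.16% at the other members. Both differences were within counting error (−2.30 percentage points, 95% interval −9.57 to 5.34, and −1.01 points, −4.53 to 4.04). Conversely, 74 genes had 2 or more members. Actn4, which encodes the actin crosslinker alpha-actinin 4, and Trpm8, a cold-sensing channel, each had 4, those at Trpm8 inside a YAP-dense domain described further on, while Ablim1, an actin-binding LIM protein, and H6pd, a hexose-6-phosphate dehydrogenase of the endoplasmic reticulum, each had 3. These genes were named after their counts were seen.

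The edges of the rule took few peaks. Of 1673 TEAD peaks of WT livers at promoters, 1647 were members (98.4%). Of the 26 others, 7 lacked a peak only at 3 d, 10 only at 7 d and 9 at both times, and their median fold enrichment in WT livers was 3.77. The smallest overlap of a member with a peak at 3 d was 90 bp and at 7 d 146 bp. At the border of the promoter interval, the member with the least overlap reached 3 bp into it, and 23 distal constitutive peaks ended within 100 bp of one.

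TEAD enrichment at the members is given as fold enrichment, the authors' ratio of tag pileup at the summit to the local background. The caller used a longer fragment length for TEAD in WT livers (400 bp) than at 3 d (207 bp) or 7 d (206 bp), and the merged libraries held 35168765, 55032002 and 38523843 tags, so levels are not directly comparable between lists. Percentile ranks within a list are given beside them. Since TEAD calls chose the members, these values are a description. In WT livers the members had a median fold enrichment of 4.99 (quartiles 4.25 and 6.41, highest 32.2), close to the middle of the WT list at percentile 48.7. At 3 d the median was 11.7, at percentile 89.4 of a list of 36446 peaks. At 7 d it was 15.8, at percentile 85.6 of 38984 peaks. Distal constitutive peaks had medians of 5.14, 12.48 and 17.53, at percentiles 52.9, 90.9 and 88.2.

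The WT list holds 5695 peaks, so these percentiles are places in lists of unequal length, and since the members had to be called in all 3 lists, a change of percentile between lists is a description only. In the 7 d list 631 members (38.3%) ranked among the top 10% and 122 (7.41%) below the median of the list. Of the 188 members in the top 10% of the WT list, 182 (96.8%) were in the top 10% at 7 d as well, and the same number was in the top 10% of all 3 lists. At the other end, 39 members were below the median of all 3 lists. Pileup per tag of the library, which does not use the background model, was higher at 7 d than in WT livers for 88.8% of members, with a median ratio of 1.55, and at 3 d for 72.0%, with a median ratio of 1.18. For distal constitutive peaks the median ratios were 1.72 and 1.24. Fragment length and depth differed between the libraries, and their part in these ratios was not tested.

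The order of the members was largely kept between lists. Across the 1647 members, which share libraries within each list, Spearman's rho of fold enrichment was 0.76 between WT and 3 d, 0.73 between WT and 7 d, and 0.87 between 3 d and 7 d. When members were divided into 4 groups at the quartiles of fold enrichment in each list, 295 of the 412 in the highest group in WT livers were in the highest group at 7 d, and 3 were in the lowest.

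Of the 5 strongest members in WT livers by −log10 p-value, only Trip6 and Creb3l2 were also among the 5 strongest both at 3 d and at 7 d. Trip6, at chr5:137755092-137755885, encodes a LIM-domain adaptor of focal adhesions. Its peak lay in the UTR exon at the start (summit 22 bp upstream of the nearest start) and had fold enrichments of 32.2, 53.7 and 62.7 in WT, 3 d and 7 d livers, which ranked it 6th by −log10 p-value in the WT list, 6th at 3 d and 47th at 7 d. Creb3l2, at chr6:37391962-37392699, encodes a membrane-bound transcription factor of the secretory pathway. With its summit 165 bp upstream of the start, it had fold enrichments of 31.1, 58.8 and 69.8, and it was the strongest TEAD peak of the whole list at 3 d.

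Tspan4, a tetraspanin gene whose peak at chr7:148662166-148662941 also overlapped the promoter of the RNA polymerase subunit gene Polr2l, had 28.9, 52.4 and 60.3. Man2b2, an alpha-mannosidase gene, had 28.3, 46.8 and 42.3 at chr5:37221485-37222311, 8 bp upstream of its start. Hps5, which encodes a subunit of a complex for lysosome-related organelles, had 23.8, 31.4 and 30.5, so it ranked 9th in WT livers and 282nd at 7 d.

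Mrpl22, Pelo and Myh9 were among the 5 strongest members at 3 d or 7 d but not in WT livers. Mrpl22, a mitochondrial ribosomal protein gene, had fold enrichments of 27.3, 51.9 and 74.7 at chr11:57984713-57985459 and was the 5th strongest TEAD peak at 7 d. Pelo, which encodes a ribosome rescue factor, had 18.7, 54.3 and 65.3 at chr13:115880595-115881359. Myh9, the heavy chain of nonmuscle myosin IIA, had 19.4, 40.7 and 62.9 at chr15:77672777-77673762. All of these strongest members overlapped a YAP peak at 7 d.

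The largest rises of rank were seen at peaks that were weak in WT livers, where most room to rise was left. The 5 largest rises, at Fam107b, H6pd, Dtna, Fam105a and Clint1, started from percentiles of 3.26 to 11.2 in WT livers and reached 90.1 to 97.3 at 7 d. Fam107b, for example, had fold enrichments of 3.72, 11.9 and 27.4. Of these 5, only Dtna, which encodes the dystrophin-associated protein dystrobrevin alpha, held GGAATG within 100 bp of the WT summit, and none overlapped a YAP peak at 7 d.

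The 5 largest falls were at Ptrf, Coil, Slc9a3r2, Cbl and Dnaja1, which dropped by 41.1 to 46.1 percentile points. They started from percentiles of 42.8 (Dnaja1) to 83.1 (Coil) in WT livers. Ptrf encodes the caveolar coat protein cavin-1, and its fold enrichments were 5.58, 8.37 and 5.18. Cbl, a ubiquitin ligase gene, had 5.98, 6.24 and 5.85, and the co-chaperone gene Dnaja1 had 4.79, 6.24 and 4.01. Coil, which encodes the Cajal body protein coilin, differed from the other falls in that its peak overlapped YAP peaks of near equal height in all 3 YAP lists (9.51, 10.1 and 9.61), the WT list included.

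**Figure D2:**
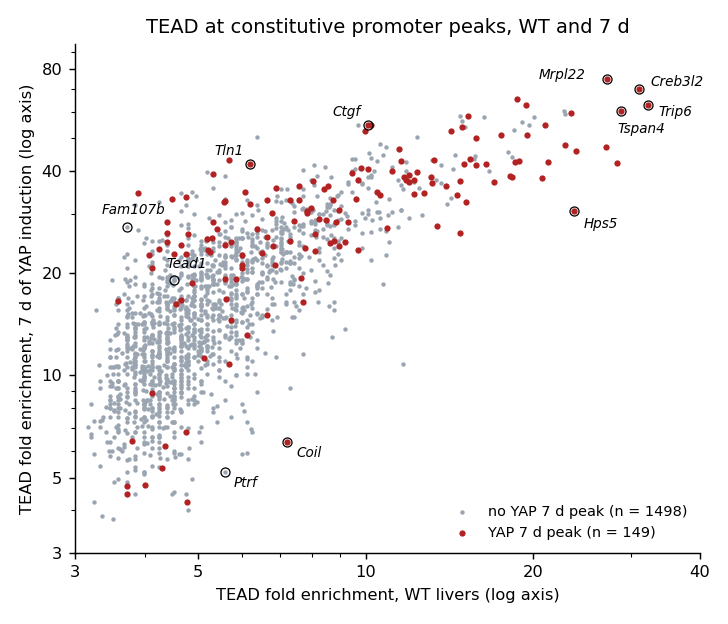
TEAD fold enrichment of each of the 1647 constitutive promoter peaks in WT livers (x axis) and at 7 d (y axis, both log axes), with the 149 members that overlapped a YAP peak at 7 d in red and the other 1498 in grey. Strong members in WT livers were strong at 7 d, and red points gather at the upper right, with a few at the bottom left that lie mostly in YAP-dense domains.

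YAP binding was not used to choose the members. In WT livers 11 of the 1647 members (0.668%, 95% Wilson interval 0.373 to 1.19) overlapped a YAP peak, and at 3 d 14 (0.850%, 0.507 to 1.42). Over all TEAD peaks of WT livers these shares were 0.931% and 0.878%. All 11 were among the 14, and all 14 overlapped a YAP peak at 7 d as well. Of the 14, 10 lay in domains where 5 or more YAP peaks of WT livers followed each other with gaps of at most 50 kb, mainly on chromosome 1 around Ugt1a1, Hjurp and Trpm8. Outside such domains 1 member overlapped a YAP peak in WT livers, at Coil, and 4 at 3 d: Coil, Tspan4, Pelo and 1110034B05Rik. Without the 10 members in these domains, YAP peaks called at constitutive TEAD promoters before 7 d were at these 4 promoters, Coil with one in WT livers already. The YAP lists of WT and 3 d livers held only 156 and 110 peaks in all, against 1478 at 7 d, so few could be found anywhere.

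At 7 d 149 members (9.05%, 7.76 to 10.5) overlapped a YAP peak, against 13.5% of all TEAD peaks of WT livers and 593 of the 3747 distal constitutive peaks (15.8%, 14.7 to 17.0). With the TEAD lists at 3 d and 7 d limited to as many of their strongest peaks as the WT list holds, 787 members were left and the share was 16.8% (14.3 to 19.5). With the whole lists, promoter peaks overlapped YAP less often than distal ones by 6.78 percentage points (95% Newcombe interval of the promoter-minus-distal difference −8.54 to −4.91). Seen from the YAP list, 172 of its 1478 peaks (11.6%) lay at a member. Of 210 YAP peaks at promoters, 156 (74.3%) lay at a member. Where both were bound, the summits lay close: the median distance from the TEAD summit in WT livers to the YAP summit was 45 bp, and in 112 of the 149 members it was at most 100 bp. The YAP peaks themselves had a median fold enrichment of 6.11 at members and 6.11 at distal constitutive peaks, and 10 of the 50 strongest YAP peaks lay at members.

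The strongest YAP peaks at members were at Tspan4, Nln, 2700078E11Rik, Tln1 and 1110034B05Rik. Tspan4 had a YAP fold enrichment of 24.9, the second strongest YAP peak at 7 d, and the only one of these with a YAP value over 10 at 3 d (13.0). Nln, which encodes the peptidase neurolysin, had 16.3 for YAP, and TEAD values of 18.6, 23.5 and 42.7, with its summit 1273 bp upstream of the nearest start. At Tln1 the TEAD peak was moderate in WT livers (6.2) and higher in the lists of induced livers (19.2 and 41.9), and its YAP value was 13.5. At 1110034B05Rik, TEAD had 15.2, 31.9 and 32.5 and YAP had 12.01, with no GGAATG within 100 bp of the summit.

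YAP followed the strength of TEAD. Members with a YAP peak had median TEAD fold enrichments of 8.11, 20.9 and 32.4 in the WT, 3 d and 7 d lists, and those without had 4.90, 11.2 and 15.1. When all constitutive peaks were divided into 4 groups at the quartiles of TEAD fold enrichment at 7 d, YAP peaks overlapped 11 of 444 members (2.48%) in the lowest group, 1.91% in the second, 7.52% in the third and 98 of 320 (30.6%) in the highest. For distal peaks these shares were 1.76%, 2.23%, 11.4% and 44.1%. In the 2 lower groups the difference between promoter and distal peaks was within counting error (0.715 points, −0.819 to 2.74, and −0.316 points, −1.81 to 1.54), and in the 2 upper groups promoters overlapped YAP less often (−3.87 points, −6.98 to −0.351, and −13.4 points, −19.1 to −7.39). Of the 11 members in the lowest group with a YAP peak, 9 lay in the YAP-dense domains.

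When peaks were divided by TEAD strength in WT livers instead, promoters overlapped YAP less often in each group. From the lowest to the highest quartile group, 2.36%, 3.65%, 7.22% and 23.7% of members overlapped a YAP peak at 7 d, against 6.11%, 7.17%, 15.2% and 34.5% of distal peaks. Each of these 4 differences was below 0 with its interval.

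Among the members, the YAP share also differed with distance from the start. YAP at 7 d overlapped 51 of the 839 members with a summit within 200 bp of a start (6.08%, 4.65 to 7.90), 7.75% at 200 to 500 bp, 15.6% at 500 to 1000 bp and 33 of 190 (17.4%, 12.6 to 23.4) beyond 1000 bp. Among these 33 were members at Ugt1a1, Heatr7b1, Hjurp and Trpm8 in the YAP-dense domains, and the shares by distance were not computed without them. The difference between the first and the last class was −11.3 points (−17.5 to −6.22), while the median TEAD fold enrichment of these classes was 15.8 and 15.9 at 7 d. GGAATG was found in 38.1%, 40.75%, 54.6% and 49.5% of the members in these classes, and the difference between the first and the last was −11.3 points (−19.1 to −3.55).

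**Figure D3:**
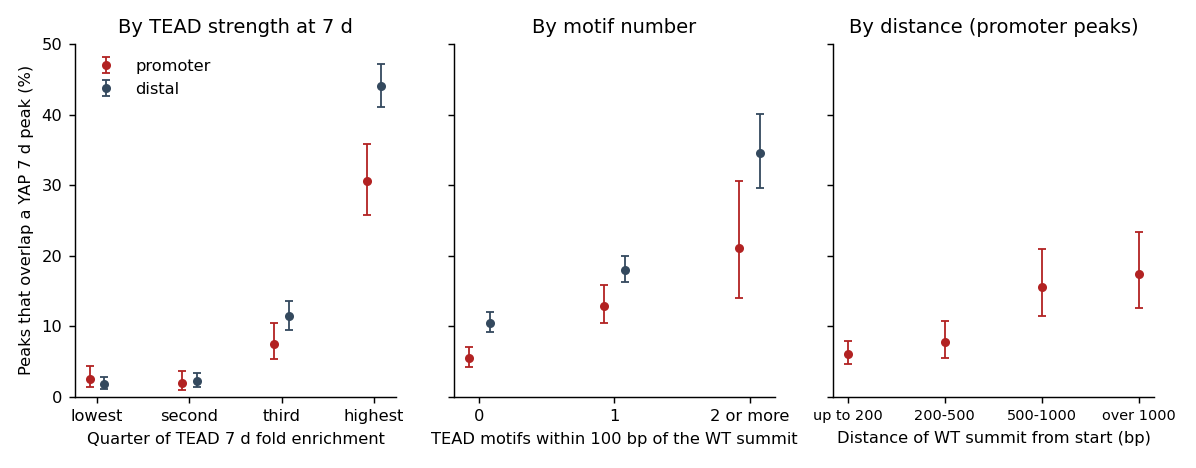
Share of constitutive TEAD peaks that overlap a YAP peak at 7 d (y axis, %) by quartile group of TEAD fold enrichment at 7 d (left), by number of TEAD motifs within 100 bp of the WT summit (middle) and by distance of the summit from the start (right, promoter peaks alone). Points are shares and bars 95% Wilson intervals; promoter peaks (red) reach 30.6% and distal peaks (dark) 44.1% in the highest group.

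Few YAP-bound members lay near a further YAP peak: 30 of the 149 (20.1%) had another YAP peak of 7 d within 50 kb. Of the 1498 without a YAP peak, 204 (13.6%) had one within that distance. The 149 include the 10 members in YAP-dense domains, which are defined by runs of YAP peaks in WT livers, and the share without them was not computed. TEAD peaks around the members were more numerous in the longer lists of induced livers. Within 50 kb of a member, peaks that overlap it left out, the median number of other TEAD peaks was 0, 4 and 4 in the WT, 3 d and 7 d lists, and 92.9% of members had at least 1 at 7 d. Around distal peaks these medians were 1, 4 and 5.

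The sequence at the members was examined next, to ask how often TEAD promoter peaks hold the TEAD motif. Within 100 bp of the WT summit, 696 of 1647 members (42.3%, 39.9 to 44.7) held GGAATG on either strand. The share was 7.89% over all windows of the same length (201 bp) centred on a protein-coding start, some of which overlap each other, and 9.93% in windows 300 to 500 bp from the members' own summits. Of distal constitutive peaks 52.3% held it, more than of members (promoter minus distal −10.023 points, −12.9 to −7.14). Motifs sat at the summit: among members with a motif, the nearest one was a median of 20.5 bp from the WT summit, and 16.5 bp from the summit of the nearest overlapping 7 d peak. Of members 951 (57.7%) had none, 606 had 1 and 90 had 2 or more.

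**Figure D4:**
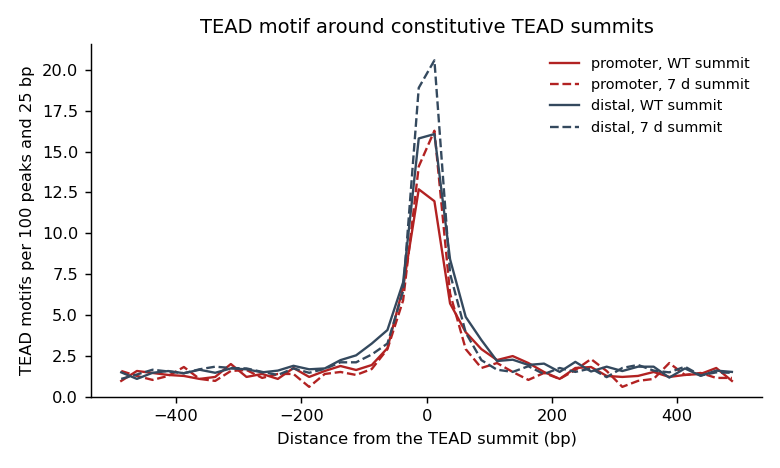
Number of TEAD motifs (GGAATG, either strand) per 100 peaks and 25 bp (y axis) by distance in bp from the TEAD summit (x axis), for promoter (red) and distal (dark) constitutive peaks, centred on the WT summit (solid) or the nearest 7 d summit (dashed). The 25 bp just before the promoter summit hold 12.7 motifs per 100 peaks in WT livers and 14.1 at 7 d, against 15.8 and 18.9 at distal summits.

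Base composition differed between the 2 classes. The median GC content within 100 bp of the summit was 55.2% at members, 47.8% at distal peaks and 59.2% at all protein-coding starts, and the ratio of observed to expected CpG was 0.640, 0.213 and 0.607. The lower motif share of promoter peaks was seen within each quartile group of GC content. In the group with the most GC, 43.2% of members and 59.6% of distal peaks held the motif (−16.4 points, −21.9 to −10.8), and in that with the least, 38.3% and 46.5% (−8.17 points, −15.5 to −0.365).

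The motif was more frequent at strong members. By quartile group of WT fold enrichment its share was 24.2%, 35.8%, 47.7% and 62.6%, and by quartile group at 7 d it was 26.1%, 35.5%, 47.1% and 60.7%. YAP, which the choice of members did not use, was found at 97 of the 696 members with the motif (13.9%) and at 52 of the 951 without (5.47%), a difference of 8.47 points (5.59 to 11.5). It reached 21.1% (14.0 to 30.6) at the 90 members with 2 or more motifs. Conversely, 65.1% of YAP-bound members and 39.99% of the others held GGAATG (difference 25.1 points, 16.8 to 32.7). At each motif number distal peaks overlapped YAP more often than promoter peaks, with 10.5%, 18.005% and 34.6%, and each of the 3 differences excluded 0.

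The bases beside the core differed from those at starts at large. Of the 797 occurrences of GGAATG at members, 77.3% (74.3 to 80.1) were followed by C or T, against 45.1% (43.5 to 46.6) of the 3804 occurrences at all protein-coding starts. At members T alone followed in 44.2% and C in 33.1%, and the base before the core was T in 38.3% and A in 31.1%. Distal constitutive peaks were similar in the base that followed, with T in 52.9% and C in 28.2% of 2339 occurrences. Of the 797 occurrences at members, 392 (49.2%, 45.7 to 52.7) read in the direction of the nearest gene. The median occurrence at members lay 97.5 bp upstream of the start.

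Pairs of the motif on the same strand were rare, and a gap of 3 bases was the most frequent among those of up to 20 bases. It was seen at 5 members (0.304%), at 0.400% of distal peaks and at 0.0109% of all protein-coding starts. The 5 promoters were picked out after the gaps had been counted. Each stretch below reads in the direction in which both motifs, in capitals, appear as GGAATG.
Ctgf, chr10:24315202-24315228, plus strand: tggggaGGAATGtgaGGAATGtccctg
Pelo, chr13:115880935-115880961, plus strand: agcagtGGAATGcgtGGAATGtacccc
Pkp4, chr2:58999936-58999962, plus strand: tgtgctGGAATGcaaGGAATGcaccag
Tead4, chr6:128250469-128250495, plus strand: ccggcaGGAATGcacGGAATGggcgct
Zfp568, chr7:30767019-30767045, minus strand: ctgtcaGGAATGtcaGGAATGtgagac

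Of these 5, all but Tead4 overlapped a YAP peak at 7 d, and at the 15 distal peaks with such a pair 10 did. Pkp4 encodes the junction protein plakophilin 4 and Zfp568 a zinc finger protein. TEAD fold enrichment at 7 d was 54.8 at Ctgf, 65.3 at Pelo, 54.9 at Pkp4, 54.9 at Tead4 and 28.3 at Zfp568, so all 5 were in the top 10% of the list. With 5 promoters the share bound by YAP is loosely set (80%, 37.6 to 96.4).

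Motifs of other factors were counted in the same windows as a description, each on both strands, and a match is not a bound site. SP/KLF (GGGCGG) was found at 34.7% of members, 6.41% of distal peaks and 38.7% of all starts. NFY (CCAAT) was found at 31.5%, 25.8% and 24.6%, ETS (CCGGAAG) at 9.35%, 1.49% and 8.62%, YY1 (AAGATGG) at 5.22%, 2.56% and 5.33%, and NRF1 (GCGCATGC) at 2.43%, 0.374% and 2.30%. For each of these but NFY, the share at members was closer to that at all protein-coding starts than to that at distal TEAD peaks. AP-1 (TGANTCA) was found at 4.25% of members, 8.22% of distal peaks and 4.001% of starts. The liver factor motifs FOXA (TGTTTAC) and HNF4A (CAAAGTCC) were found at 2.73% and 1.52% of members, 6.67% and 3.55% of distal peaks, and 1.65% and 0.821% of starts. CREB (TGACGTCA) was found at 1.94%, 0.507% and 1.65%, the E-box (CACGTG) at 6.62%, 3.50% and 5.21%, and CEBP (TTGCGCAA) at 6 members.

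Members without GGAATG held 2 of these promoter motifs more often. ETS was found at 11.8% of members without GGAATG and 6.03% of those with it (with minus without −5.74 points, −8.43 to −2.97), and NFY at 35.0% and 26.6% (−8.44 points, −12.8 to −3.92). For AP-1, NRF1, CREB and SP/KLF the differences were within counting error. YAP-bound members held SP/KLF less often than the others (21.5% and 36.0%, difference −14.5 points, −20.8 to −6.85), and their AP-1 share of 6.71% did not differ from the 4.01% of the others beyond counting error (2.71 points, −0.519 to 7.98).

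The genes at the members were described by lists of known roles. Over all protein-coding genes 8.12% had a constitutive TEAD promoter peak, and the share of each list is read against that. The lists were drawn up with earlier results of these data known, so they are a description.

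Among genes known as targets of YAP and TEAD, 7 of 26 had a member (26.9%, 13.7 to 46.1), and all 7 members held GGAATG. Ctgf and Cyr61 encode secreted matricellular proteins. The member at Ctgf, chr10:24314836-24315521, had TEAD fold enrichments of 10.1, 43.5 and 54.8 in WT, 3 d and 7 d livers, and a YAP value of 10.5 at 7 d. That at Cyr61, chr3:145312724-145313397, had 11.6, 28.1 and 36.5, with no YAP peak. Lats2, a kinase that phosphorylates YAP, had 11.2, 28.1 and 41.2, also with no YAP peak. Amotl2, an angiomotin that binds YAP, had 23.4, 48.6 and 59.6 for TEAD and 10.7 for YAP.

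Of genes for TEAD, VGLL, YAP and TAZ, 4 of 10 had a member (40%, 16.8 to 68.7). The TEAD genes among these 4 were Tead1 and Tead4, and the other TEAD genes had no member. Tead1 had fold enrichments of 4.52, 14.6 and 19.1 in the WT, 3 d and 7 d lists, 37 bp upstream of the start with 2 motifs. Tead4 had 9.70, 32.0 and 54.9, with 3 motifs. Vgll4, which encodes a repressive partner of TEAD, had members at 2 of its starts, the stronger with 10.1, 25.9 and 35.8. Wwtr1, the gene of TAZ, had 6.65, 13.6 and 15.1 and was the only one of the 4 with a YAP peak at 7 d (6.11).

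Hippo pathway regulators had members at 10 of 34 genes (29.4%, 16.8 to 46.2), 5 of them with a YAP peak at 7 d: Amotl2, Wwc2, Jub, Strn3 and Ptpn14. Of these 10 genes, Amotl2, Jub, Ptpn14 and Lats2 are also on the target list. Wwc2, of the KIBRA family, had TEAD values of 21.3, 34.5 and 42.7 and a YAP value of 12.01. Jub, the LIM protein Ajuba that restrains LATS kinases, had 14.6, 28.6 and 34.1, and 5.04 for YAP. Strn3, a scaffold of the phosphatase complex that opposes Hippo kinases, had 11.5, 26.6 and 46.7, and 7.64 for YAP. Ptpn14, a phosphatase that holds YAP in the cytoplasm, had 6.91, 15.9 and 35.8, and 5.24 for YAP.

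Actin cytoskeleton and adhesion genes had members at 14 of 38 genes (36.8%, 23.4 to 52.7), with 17 peaks of which 14 held GGAATG. Myl12b, a myosin light chain, had 20.7, 39.7 and 38.2 for TEAD and 5.24 for YAP. Myh9 had a YAP value of 7.20. Actn4 had 4 members over its several starts, the strongest with 8.11, 16.1 and 28.3. Vcl, the gene of vinculin, had 7.05, 20.5 and 21.7. With Tln1, 3 of the 14 genes had a YAP peak at 7 d.

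Immediate early and AP-1 genes had members at 3 of 21 (14.3%, 4.98 to 34.6), a wide interval that includes the 8.12% of all genes. Atf3, a stress-induced transcription factor, had 7.44, 19.2 and 28.5, and 5.89 for YAP. Mafk had 9.63, 20.6 and 33.1, and 5.42 for YAP. Ier3 had 7.71, 11.5 and 11.6, with no YAP peak. Cell cycle and replication genes had members at 6 of 35 (17.1%, 8.10 to 32.7): Ccnd1, which encodes cyclin D1 and had a YAP peak (5.85), Ccnd3, Cdk6, Mcm2, Mcm7 and E2f3. Mcm7, a subunit of the replicative helicase, had the highest TEAD values of them, with 9.84, 25.3 and 36.6.

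Hepatocyte genes had members with lower TEAD values in WT livers than the known targets. Of hepatocyte transcription factors 2 of 25 (8%, 2.22 to 24.97) had a member, Rxra and Ppara, both nuclear receptors with 5.58 and 5.18 in WT livers and 22.4 and 21.4 at 7 d. Secreted plasma proteins and apolipoproteins had 6 of 29 (20.7%, 9.85 to 38.4), an interval above the 8.12% of all genes. The member counted for Apoa2 lay nearest to the start of another gene, Tomm40l, and the share without Apoa2 was not computed. The 8 members at these 6 genes had a median fold enrichment of 4.43 in WT livers. None had a YAP peak, but 8 are too few to tell that from the 9.05% of all members. Apoe had 6.86, 12.3 and 18.9, and Fga, a fibrinogen chain, had 5.45, 15.3 and 24.7. Apoc1 and Hpx, the heme scavenger hemopexin, had 24.0 and 12.4 at 7 d. Metabolic enzymes and related genes of hepatocytes had 3 of 29 (10.3%, 3.58 to 26.4), among them Cyp2e1 and Ugt1a1, the latter inside a YAP-dense domain with YAP values of 4.05, 4.21 and 4.24 in WT, 3 d and 7 d livers.

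Ribosomal protein genes, which are active in every cell, had members at 12 of 73 (16.4%, 9.66 to 26.6), an interval above the 8.12% of all genes. None of the 12 members had a YAP peak, but 12 are too few to tell that from the 9.05% of all members. Their median fold enrichment was 4.59 in WT livers and 12.8 at 7 d, below the medians of all members. Rps26 and Rpl27 were the strongest, with 7.10 and 7.05 in WT livers and 22.9 and 23.6 at 7 d. By contrast the members at the target list had medians of 11.2 and 41.1. Of biliary and progenitor markers 1 of 19 had a member, Notch2, a receptor of biliary differentiation, with 8.73, 20.7 and 33.0 for TEAD and 5.46 for YAP.

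Markers of other liver cells were counted because the chromatin came from whole tissue. No endothelial marker (0 of 10, upper limit 27.8%) and no marker of Kupffer cells and other leukocytes (0 of 9, upper limit 29.9%) had a member. Of stellate cell and fibroblast markers 1 of 10 had one, Pdgfra, with fold enrichments of 3.99, 10.3 and 10.6. Ctnnd1, the gene of p120-catenin, had no member.

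**Figure D5:**
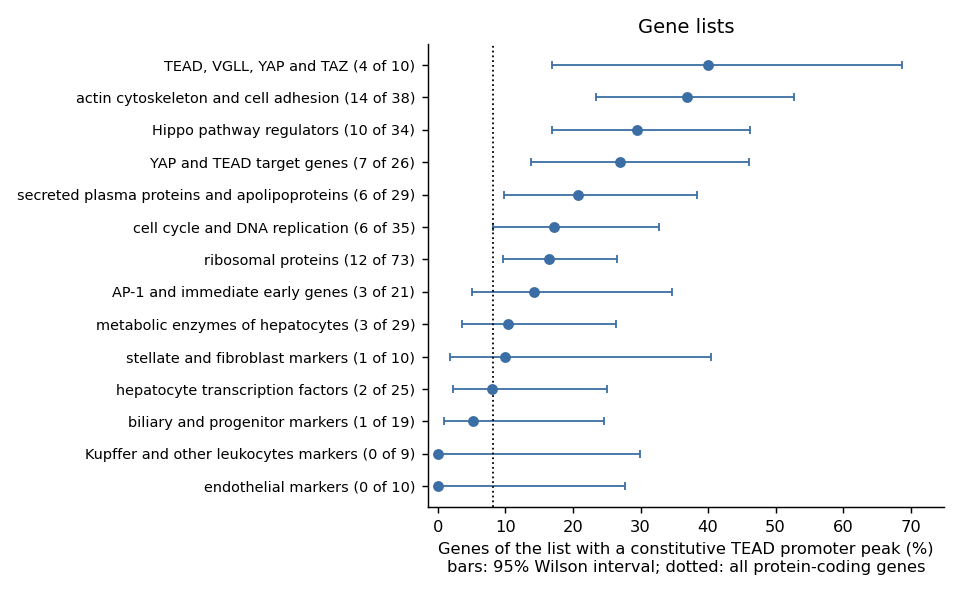
Share of the genes of each list with a constitutive TEAD promoter peak (x axis, %), with 95% Wilson intervals as bars and the counts beside each name; the dotted line is the 8.12% of all protein-coding genes. The lists of TEAD and its partners, cytoskeleton, Hippo regulators and known targets lie at 26.9% to 40%. The intervals of secreted plasma proteins (20.7%) and ribosomal proteins (16.4%) also lie above the line. A gene counts where a member reaches its promoter, even if the start of another gene is nearer to the summit. Marker lists of other cells hold at most 1 gene of 9 or 10, and their intervals include the 8.12%.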

How the data were processed

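The 19 samples were put into 6 groups by the labels. The authors masked low-quality bases, aligned reads to mm9 with BWA 0.6.2, merged the replicates of each group, removed duplicates and called peaks (MACS 2.0.9, p cutoff 1e-05), per the file headers with 51 bp tags and against 167176362 control tags, which the methods trace to published data. The merged YAP libraries held 54661175, 36221830 and 34260362 tags in WT, 3 d and 7 d livers, called with a fragment length of 250 bp. The deposited pileup is a signal, the height of extended fragments at the summit. The deposited fold enrichment is the ratio of the pileup to the local background. The deposited −log10 p-value and −log10 q-value came from the same caller, and only the former was used, for ranks and filters.

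Members were found by overlap with the lists and with promoters of protein-coding transcripts in GENCODE for NCBIM37, the assembly also called mm9. All peak ends on numbered chromosomes and X lay within its lengths, and unplaced sequences were left out. Where several peaks overlapped a member, that of highest −log10 p-value gave its values. Shares carry 95% Wilson intervals and differences Newcombe intervals. Motifs were searched on both strands. Members, gene lists and YAP-dense domains were chosen with earlier results of these data known. Genes named were the 5 highest members of each TEAD list by −log10 p-value, the 5 largest rises and falls in percentile from WT to 7 d, the 5 with the strongest YAP peak at 7 d, up to 4 genes per gene list by −log10 p-value in WT livers with any that had a YAP peak, and Ctgf, Cyr61, Tead1, Tead4, Creb3l2 and Ctnnd1. A member was named by the nearest protein-coding start. An item that this rule names is not reported here. Mcm2, E2f3, Apoa2, Tomm40l and genes singled out by a count were named after their values were seen. Python 3.11.15 with pandas 2.3.3 was used, and overlap, motif and interval functions were tested on simulated data with known answers.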

Additional observations from a re-analysis of the deposited data

How the results depend on the processing

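The lower YAP share and the lower motif share of promoter against distal constitutive peaks kept their direction, with intervals below 0, under all 20 alternatives run, and ranged from −10.7 to −6.50 points for YAP and from −11.8 to −8.25 points for the motif. Groups of TEAD fold enrichment at 7 d were not among these alternatives. In their 2 lower groups the YAP difference was within counting error (0.715 and −0.316 points), and in the upper ones it was −3.87 and −13.4 points. In all, 46 of 57 values kept within the limits set for them. The others were as follows. With the TEAD lists at 3 d and 7 d limited to as many of their strongest peaks as the WT list holds, 787 members at 885 genes remained, and 16.8% of them overlapped YAP at 7 d. With TEAD and YAP summits required to lie at most 100 bp apart the YAP share was 6.86%. With TEAD summits of the 3 lists at most 100 bp apart the motif share was 49.9% and the median WT fold enrichment 5.45, and with a −log10 p-value of at least 10 in each TEAD list they were 45.8% and 5.32. The motif share was 33.1% within 50 bp, 53.8% within 250 bp, and 45.7% around the nearest 7 d summit. For each of these the cause was not tested beyond the smaller or larger set or window that the setting itself makes. An alternative chosen after seeing the data, WT peaks narrowed to 206 bp around their summits, left 1600 members and a YAP share of 8.56%.

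No paired analysis was possible because the authors merged the replicates of each group before calling peaks, so replicate numbers do not appear in any list. A fit without 1 replicate could not be run for the same reason. The YAP list at 7 d came from 34260362 tags, so a promoter without a YAP peak had no YAP peak detectable at this depth and threshold. Fold enrichment is not comparable between lists of different fragment length.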
